A study of Homo sapiens with 12 samples.

Results

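The RNA response of MDA-MB-231 cells to AZD0095 was measured in 6 of the 12 libraries of the series. Of these, 3 RNA libraries came from cells given 10 nM AZD0095 for 4 h and 3 from cells given the solvent DMSO for the same 4 h. MDA-MB-231 is an established human line of triple-negative breast cancer, and AZD0095 inhibits MCT4, the product of SLC16A3, which carries lactate together with a proton across the plasma membrane. The other 6 libraries are ribosome footprints of the same pair of treatments and serve here only for comparison. All 6777 genes of the deposited tables were tested. The account below is about genes outside 6 lists that were set aside, namely the integrated stress response, endoplasmic reticulum stress, heat shock, glycolysis, the G1/S phase and G2 with mitosis. Those lists hold 201 of the genes tested, which leaves 6576.

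MCT4 is the exporter that strongly glycolytic cells use to release lactate, and a cell in which it is blocked retains lactate and protons. A change in RNA after a few hours can come from synthesis or from decay, and the transcripts known to turn over fastest are those of signal feedback inhibitors, secreted ligands and regulators of transcription. Among the slowest are those of ribosomal proteins, the proteasome and the respiratory chain. The results are ordered by function in that sense: signalling, the cell surface and its skeleton, metabolism, and then the nucleus.

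Levels are given in FPKM, fragments scaled by gene length and library size, and changes as differences of log2(FPKM + 1) between the AZD0095 and DMSO means, with the standard error of the limma fit. A gene was called when its adjusted p was under 0.05 over all genes tested. Separate cultures are not named for the replicates, so a p-value measures no more than how far these libraries spread, part of which may be technical. FPKM does not keep the number of reads, so depth is unknown. In bulk RNA of this kind, fewer cells with a transcript and less of it per cell cannot be told apart.

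The RNA libraries correlated at 0.989 to 0.997 within groups. Both replicate 1 libraries stood apart: mitochondrially encoded transcripts took 10.3% of summed FPKM in DMSO replicate 1 and 9.46% in AZD0095 replicate 1, against 13.3% to 14.9% in the others. Results are therefore given without and with replicate 1 as a batch. All 10 basal and mesenchymal markers checked were listed, such as VIM, with summed FPKM of 5638 to 5691 in DMSO and 5858 to 6131 with AZD0095. Of 12 luminal and epithelial markers 6 were listed, with sums of 641 to 670 and 727 to 765, and ESR1, PGR, GATA3, FOXA1, CDH1 and TFF1 were not. None of 18 markers of blood, endothelial, adipose or fibroblast cells was listed. The tables list only genes above 1 FPKM in every library, so an unlisted gene may have been low or absent.

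Outside the lists set aside, 500 genes were called, 307 higher and 193 lower with AZD0095. Over all genes 8.04% were called, 5.03% higher and 3.01% lower, and in 29.2% the groups did not overlap (17.7% higher and 11.5% lower). The changes were small: the median absolute log2 change of the 500 genes was 0.41, 79 of them passed 1.5-fold and 7 passed 2-fold. With replicate 1 as a batch, called the batch fit below, 833 genes outside the lists were called higher and 743 lower, where 24.5% of all genes were called, 12.9% higher and 11.6% lower. Every one of the 545 genes called over the whole table without the batch term was also called with it, in the same direction.

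Single libraries mattered more without the batch term. Of the 500 calls, 75 held when each of the 6 libraries was left out in turn, 44 higher and 31 lower. Of the same 500, 492 held in each of 5 further fits, called the 5 batch fits below. Each left out a replicate 2 or 3 library and kept the batch term, except 1. That fit left out the replicate 1 pair and so had no batch term. Of the 833 higher and 743 lower calls of the batch fit itself, fewer held: 754 in all 5. No fit with the batch term left out a single replicate 1 library. Where a call is said below to be lost, it was lost in the fit without the batch term.

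**Figure D1:**
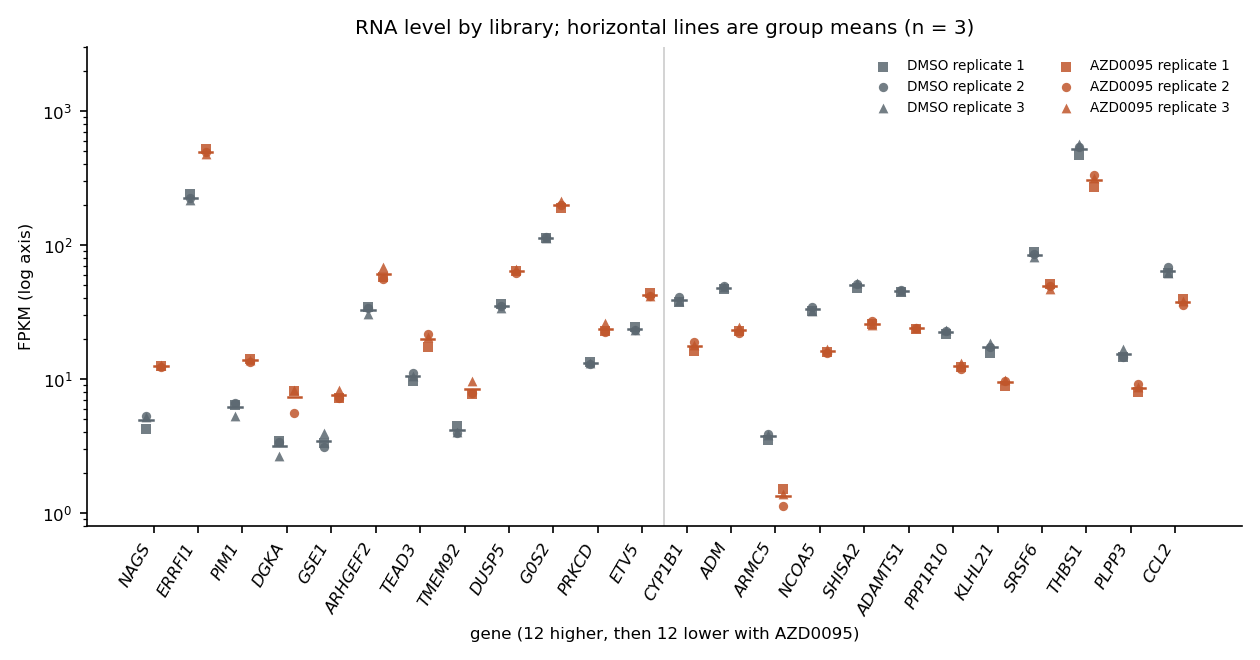
FPKM on a log axis in each of the 6 RNA libraries for the 12 largest rises and 12 largest falls outside the lists set aside, among genes whose call held without each library in turn. Points are libraries, squares replicate 1, circles replicate 2 and triangles replicate 3; horizontal lines are group means (n = 3). For all 24 genes the grey DMSO points and the orange AZD0095 points do not overlap.

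The gene of the drug target did not change measurably. SLC16A3 was at 87.2, 102 and 106 FPKM in the DMSO libraries and 98.2, 105 and 109.9 FPKM in the AZD0095 libraries. The groups overlapped, and the log2 change was 0.09 ± 0.08 (SE, limma adjusted p = 0.56; 0.2 with replicate 1 as a batch).

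Negative regulators and ligands of the epidermal growth factor receptor and the ERK kinase cascade rose in part, and none was called lower without the batch term. In this cascade a ligand activates the receptor, RAS and ERK, and ERK then switches on genes whose products damp the signal. Of 26 members 7 were called higher and 0 lower; the list's median log2 change was 0.09 against 0.01 over all genes. With replicate 1 as a batch 9 were higher and 2 lower, EGFR and the phosphatase gene DUSP7, the latter named after its value was seen. The count of rises was 3 without either replicate 2 library, 4 when DMSO replicate 1, DMSO replicate 3 or AZD0095 replicate 3 was removed, and 8 without AZD0095 replicate 1. In the 5 batch fits it was 8 to 9.

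ERRFI1, which binds the receptor and blocks its kinase, was at 238, 225 and 215 FPKM in the DMSO libraries and 518, 491 and 481 FPKM in the AZD0095 libraries. Every AZD0095 library was above every DMSO library, by more than the spread within either group. DUSP5 (ENSG00000138166, chromosome 10, 110497907 to 110511533 in hg38), a phosphatase that inactivates ERK in the nucleus, was at 36.1, 34.9 and 34.1 FPKM in the DMSO libraries and 63.5, 61.7 and 66.1 FPKM in the AZD0095 libraries, a log2 change of 0.85 ± 0.06 (SE, limma adjusted p = 1.6e-04). AREG, a ligand of the receptor (ENSG00000109321, chromosome 4, 74445136 to 74455005), was at 22.8, 20.5 and 21.3 FPKM in the DMSO libraries and 38.7, 36.5 and 38.9 FPKM in the AZD0095 libraries. That is a log2 change of 0.79 ± 0.07 (limma adjusted p = 5.1e-04), again with no overlap. A second ligand gene, HBEGF, rose by 0.40 but was not called with DMSO replicate 2 (limma adjusted p = 0.06) or AZD0095 replicate 2 (0.071) left out. The other 3 called members, named after their values were seen, were the receptor's ubiquitin ligase CBL (0.42) and the RAS pathway inhibitors SPRY4 (0.34) and SPRED2 (0.29), each lost without any library but AZD0095 replicate 1 (limma adjusted p of 0.082 to 0.17). EGFR itself, also named after its value was seen, was at 73.0 to 87.9 FPKM in DMSO and 57.8 to 70.1 FPKM with AZD0095, a log2 change of -0.29 that was not called (limma adjusted p = 0.11; 0.0015 with replicate 1 as a batch).

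The AREG promoter is printed because it holds a cAMP response element, letters TGACGTCA searched on both strands, in the 250 bases upstream of the RefSeq start (GRCh38.p14, chr4:74444886-74445135, plus strand, element in capitals). That element was found in 3.50% of the upstream windows of all 5655 tested genes with one and in 4.03% of the 248 among genes called higher.
AREG: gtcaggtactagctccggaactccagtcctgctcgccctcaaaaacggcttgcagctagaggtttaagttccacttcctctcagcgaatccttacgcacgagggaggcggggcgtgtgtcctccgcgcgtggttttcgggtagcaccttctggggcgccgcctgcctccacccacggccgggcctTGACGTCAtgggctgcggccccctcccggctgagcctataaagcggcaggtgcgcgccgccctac

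Single genes of growth signalling were among the larger rises, while the lists of PIM1 and TEAD3 held rises and falls. PIM1, a serine/threonine kinase that promotes survival (ENSG00000137193, chromosome 6, 37170152 to 37175428), was at 6.46, 6.68 and 5.34 FPKM in the DMSO libraries and 14.1, 13.5 and 13.8 FPKM in the AZD0095 libraries. Its level was about the same in all 3 AZD0095 libraries, far above DMSO, with a log2 change of 1.05 ± 0.09 (limma adjusted p = 6.7e-04). The protein kinase C gene PRKCD rose by 0.81, at 13 to 13.3 FPKM in DMSO and 22.4 to 26.2 FPKM with AZD0095. ETV5, an ETS factor and a textbook ERK target, was at 23.2 to 24.6 FPKM in DMSO and 41.4 to 43.7 FPKM with AZD0095 (0.81), and TEAD3, a DNA-binding partner of YAP, at 9.71 to 11.1 FPKM in DMSO and 17.4 to 21.7 FPKM with AZD0095 (0.86). The calls of these 4 held whichever library was removed. Of 27 genes of PI3K, AKT and mTORC1 signalling, the list of PIM1, 1 rose and 2 fell (2 and 2 with the batch term), with a median of 0.01. Of 20 Hippo and YAP genes, the list of TEAD3, 3 rose and 1 fell (3 and 2 with the batch term), with 14 below 0 and a median of -0.07. SRC, the founding tyrosine kinase of its family, rose by 0.64, lost without DMSO replicate 2 (limma adjusted p = 0.065) or AZD0095 replicate 2 (0.056).

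Kruppel-like and AP-1 factors had more rises than falls. Of 18 Kruppel-like, AP-1 and related factors 5 rose and 1, SP2, fell (6 and 2 with the batch term), against 5.03% and 3.01% of all genes. JUNB, a subunit of AP-1, was at 16, 16 and 17.0 FPKM in the DMSO libraries and 22.9, 23.6 and 23 FPKM in the AZD0095 libraries, a log2 change of 0.48 ± 0.07 (limma adjusted p = 0.006). The groups were tight and apart. KLF4 (0.43) and KLF10 (0.35), zinc finger factors that restrain proliferation in many cells, rose with an adjusted p of up to 0.059 and 0.11 when 1 library was left out, and the list had 1 rise without either replicate 2 library. Of 22 genes of TNF receptors, death receptors and the BCL2 family 2 rose and 3 fell, and with the batch term 4 and 7. They included the death receptor gene TNFRSF10B (0.48), which rose, and the TWEAK receptor gene TNFRSF12A (-0.42), which fell. Their adjusted p reached 0.077 and 0.055 when 1 library was left out.

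Several genes of cell contacts rose. Tight junctions, desmosomes and gap junctions join epithelial cells, and the E-cadherin gene CDH1, which anchors such contacts, was not listed here. Of 37 genes of cadherins, junctions, ephrins and semaphorins 7 rose and 0 fell, with a median of 0.08. With the batch term 12 were higher and 2 lower (8 to 11 higher in the 5 batch fits). The rises were 2 without DMSO replicate 2, 3 without AZD0095 replicate 2 and 4 without AZD0095 replicate 3.

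F11R, the tight junction adhesion molecule JAM-A (ENSG00000158769, chromosome 1, 160995211 to 161021152), was at 5.8, 6.36 and 6.97 FPKM in the DMSO libraries and 10.4, 10.6 and 10.8 FPKM in the AZD0095 libraries. OCLN, which encodes the tight junction protein occludin and stands outside that list, was at 6.36, 5.97 and 6.59 FPKM in the DMSO libraries and 10.8, 10.6 and 10.0 FPKM in the AZD0095 libraries. Both separated the groups completely, with log2 changes of 0.66 ± 0.09 and 0.65 ± 0.08 (SE, limma adjusted p = 0.0051 and 0.0037). Of the others, the connexin gene GJB2 (0.59) and the desmosomal DSP (0.46) were lost only without DMSO replicate 2 (limma adjusted p = 0.053 and 0.058), and the claudin gene CLDN4 (0.50) without that library or AZD0095 replicate 2 (0.06 and 0.056). CLDN7 (0.42), the connexin gene GJA1 (0.45) and SEMA4D (0.45), named after their values were seen, were lost without 3 or 4 of the libraries, with an adjusted p of at most 0.11. Of the 6 luminal markers listed 2 rose, XBP1 of the stress lists (0.81) and the keratin gene KRT19. KRT19, at 125 to 133 FPKM in DMSO and 155 to 166 FPKM with AZD0095 (0.31), was not called without DMSO replicate 2 (limma adjusted p = 0.064). Whether a shift in the mix of cell states took part was not tested.

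The skeleton of the cell showed rises and few falls. Of 53 genes of the actin skeleton 5 rose and 0 fell (11 and 2 with the batch term). ARHGEF2, an exchange factor that microtubules hold inactive, was at 34.3, 33.8 and 30.8 FPKM in the DMSO libraries and 57.8, 56.3 and 69.0 FPKM in the AZD0095 libraries. The AZD0095 libraries, although spread, all lay above DMSO, and the log2 change was 0.86 ± 0.09 (limma adjusted p = 0.0016). VASP, which extends actin filaments, also rose (0.47), and its call held without each library. The actin list had 1 or 2 rises when any library but AZD0095 replicate 1 was left out.

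Kinesin, dynein and tubulin genes outside mitosis had 7 rises and 1 fall among 49 (15 and 5 with the batch term). They included TUBA1A, a tubulin gene at 56.7 to 60 FPKM in DMSO and 74.3 to 83.9 FPKM with AZD0095 (0.42), lost without DMSO replicate 2 (limma adjusted p = 0.052), and the motor gene KIF1B (0.48), lost without that library (0.071) or AZD0095 replicate 2 (0.062). The rises numbered 0 without DMSO replicate 2, 1 without AZD0095 replicate 2, 2 without DMSO replicate 1 or 3 and 3 without AZD0095 replicate 3. Of 35 integrin and focal adhesion genes 2 rose, SRC and the fibronectin receptor subunit ITGA5. That is 5.71% of the list, near the 5.03% of all genes. ITGA5 was at 43.4, 55.5 and 58.1 FPKM in the DMSO libraries and 81.7, 82.6 and 88.8 FPKM in the AZD0095 libraries, a log2 change of 0.69 ± 0.10 (limma adjusted p = 0.0083), and was lost without AZD0095 replicate 2 (0.051). With the batch term 8 of these 35 were higher and 0 lower, where 12.9% of all genes were higher.

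Membrane traffic genes differed by list. RAB GTPases, the switches of vesicle transport, had 4 rises and 0 falls among 34, and 11 and 1 with replicate 1 as a batch. The rises numbered 0 without AZD0095 replicate 2, 1 without DMSO replicate 2 or AZD0095 replicate 3 and 2 without DMSO replicate 1 or 3. RAB43 showed the largest of these changes, at 1.2 to 1.75 FPKM in DMSO and 2.94 to 3.85 FPKM with AZD0095 (0.82), and was lost without AZD0095 replicate 2 (limma adjusted p = 0.051). Of 58 endosomal sorting genes 3 rose and 0 fell (9 and 1 with the batch term), and 0 rose without either replicate 2 library or AZD0095 replicate 3. The 3 rises were 5.17% of that list, near the 5.03% of all genes. With the batch term 12.9% of all genes rose. The lysosome and its proton pump had 0 calls among 49 genes, and vesicle coats had 1, the GTPase gene ARF6 (-0.26), which fell. With the batch term, the lysosome list had 5 rises and 1 fall, and the coat list 5 rises and 3 falls among 64. For both lists these were below the shares of all genes.

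In metabolism the largest rise was in NAGS, which makes N-acetylglutamate, the activator of the urea cycle (ENSG00000161653, chromosome 17, 44004622 to 44009068). It was at 4.26, 5.33 and 5.25 FPKM in the DMSO libraries and 12.5, 12.4 and 12.8 FPKM in the AZD0095 libraries, a log2 change of 1.19 ± 0.09 (SE, limma adjusted p = 3.7e-04). The AZD0095 libraries agreed closely, and none came near DMSO. Of 20 genes of arginine, proline and polyamine metabolism 3 rose and 0 fell (5 and 2 with the batch term), with 15 of 20 above 0, the other called genes being the aspartate aminotransferase GOT1 (0.37) and the polyamine acetyltransferase SAT1 (0.27), with an adjusted p of up to 0.12 and 0.15 when 1 library was left out.

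Lipid genes were called in both directions. G0S2, an inhibitor of the lipase that opens lipid droplets, was at 112, 115 and 112 FPKM in the DMSO libraries and 188, 198 and 211 FPKM in the AZD0095 libraries. The diacylglycerol kinase DGKA, which turns diacylglycerol into phosphatidic acid, was at 3.46, 3.36 and 2.65 FPKM in the DMSO libraries and 8.13, 5.61 and 8.28 FPKM in the AZD0095 libraries. Neither gene's groups overlapped, and the log2 changes were 0.81 ± 0.05 and 0.99 ± 0.15 (limma adjusted p = 1.6e-04 and 0.0082). SLC27A1, a fatty acid transporter, rose by 0.91, lost without DMSO replicate 2 (limma adjusted p = 0.056) or AZD0095 replicates 2 (0.075) and 3 (0.053). Falls were seen for PLPP3, a phosphatase that degrades lysophosphatidic acid outside the cell, at 14.7 to 16.7 FPKM in DMSO and 8.04 to 9.14 FPKM with AZD0095 (-0.76), and for the choline kinase CHKA (-0.59), lost without DMSO replicate 2 (0.056) or AZD0095 replicate 2 (0.055). Of 40 phospholipid, phosphoinositide and diacylglycerol enzymes 6 rose and 1 fell (9 and 7 with the batch term). There was 1 rise without either replicate 2 library or AZD0095 replicate 3, and 2 without DMSO replicate 1 or 3.

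Receptors for lipoproteins and genes of lipid droplets, 19 in all, had a median log2 change of 0.15, with 17 of 19 above 0. Only 2 were called, VLDLR (1.25), which belongs to the stress list, and LRP8 (0.31), lost without any library but AZD0095 replicate 1 (limma adjusted p of at most 0.17). In the batch fit 8 of the 19 were higher and 0 lower. Sterol and fatty acid synthesis had 2 rises and 0 falls among 40 genes (6 and 3 with the batch term) and a median of -0.02. The 2 rises were 5.0% of that list, near the 5.03% of all genes. With the batch term 12.9% of all genes were higher and 11.6% lower.

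Some genes of energy sensing and transport were called. Of 12 genes of the AMP-activated kinase pathway 3 rose: TBC1D1, a brake on glucose transporter traffic (0.33), the catalytic subunit PRKAA2 (0.42) and the upstream kinase CAMKK2 (0.38). These were 3 of 12, against 5.03% of all genes. The count was 0 without any of 5 libraries and 4 without AZD0095 replicate 1, and 4 with the batch term. Of 108 solute carriers 9 rose and 4 fell (21 and 10 with the batch term). The counts were 2 and 0 without DMSO replicate 2, AZD0095 replicate 2 or AZD0095 replicate 3, 4 and 1 without DMSO replicate 1, and 4 and 0 without DMSO replicate 3. The best supported members, SLC38A2 and SLC2A3, belong to the stress and glycolysis lists. Among the rest, the copper importer SLC31A1 rose by 0.43 and the zinc exporter SLC30A1 fell by 0.38 on the log2 scale, with an adjusted p of up to 0.074 and 0.078 when 1 library was left out.

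Interferon response and antigen presentation genes, counted as 1 list, leaned higher. Of 34 interferon response and MHC class I genes 5 rose and 0 fell, with 28 above 0 and a median of 0.11. With replicate 1 as a batch 12 were higher and 1 lower, 5 to 12 higher in the 5 batch fits. B2M, the light chain of MHC class I, was at 791, 776 and 797 FPKM in the DMSO libraries and 885, 879 and 963 FPKM in the AZD0095 libraries. The groups did not overlap, but the log2 change of 0.20 ± 0.05 was modest (limma adjusted p = 0.042), and the call was lost without any library but AZD0095 replicate 1 (at most 0.17). The others were the interferon-gamma receptor gene IFNGR2 (0.42), the factors IRF3 (0.40) and STAT2 (0.41) and, named after its value was seen, the peptide transporter gene TAP1 (0.42). Without DMSO replicate 2 or AZD0095 replicate 2 none of these 5 was called. No blood cell marker was listed in any library.

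In bone morphogenetic protein signalling a ligand gene and the gene of its antagonist both fell. Of 21 genes of bone morphogenetic protein and SMAD signalling 5 fell and 0 rose, while the median of the list was 0.01 and 11 of 21 were above 0. BMP4, a ligand of the pathway (ENSG00000125378, chromosome 14, 53949736 to 53956891), was at 40.4, 46.4 and 45.7 FPKM in the DMSO libraries and 28.6, 28.5 and 28.2 FPKM in the AZD0095 libraries. NOG, which encodes its secreted antagonist noggin, was at 23.8, 25.4 and 26.6 FPKM in the DMSO libraries and 15.2, 17.1 and 16.6 FPKM in the AZD0095 libraries. Both were lower in every AZD0095 library, with log2 changes of -0.61 ± 0.07 and -0.60 ± 0.08 (SE, limma adjusted p = 0.0027 and 0.0045). ID3, a direct target of the pathway, also fell (-0.49), lost without DMSO replicate 2 (limma adjusted p = 0.061) or AZD0095 replicate 2 (0.064). TGFB2 (-0.37) and, named after its value was seen, the shared mediator SMAD4 (-0.35) were lost without any library but AZD0095 replicate 1 (at most 0.075 and 0.16). With the batch term 6 of the 21 were lower and 4 higher. The Notch ligand gene JAG1, the single called gene of 14 in its list, was at 48.3 to 53.6 FPKM in DMSO and 31.1 to 38.0 FPKM with AZD0095 (-0.53), and its call was lost without DMSO replicate 2 (0.056).

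Matrix and cytokine genes moved both ways. ADAMTS1, a protease that cleaves proteoglycans, was at 44.5, 46.4 and 45.5 FPKM in the DMSO libraries and 23.5, 24.1 and 24.1 FPKM in the AZD0095 libraries, and THBS1, which encodes the matrix protein thrombospondin 1, at 469, 535 and 562.4 FPKM in the DMSO libraries and 273, 330.1 and 314 FPKM in the AZD0095 libraries. Of 44 matrix, protease and inhibitor genes 3 fell and 1 rose, the riser being the plasminogen activator PLAT (0.35), lost without DMSO replicate 2 (limma adjusted p = 0.078) or AZD0095 replicates 2 (0.097) and 3 (0.073). With the batch term 7 of the 44 fell and 5 rose. SHISA2, a regulator of Wnt and FGF receptor maturation, was at 48.0 to 51.9 FPKM in DMSO and 25.3 to 27.0 FPKM with AZD0095 (-0.93). Of 22 genes of NF-kB, cytokines and chemokines 6 rose and 2 fell, with 15 above 0 and a median of 0.12 (7 and 5 with the batch term). The rises numbered 1 without DMSO replicate 2, 2 without AZD0095 replicate 2 and 3 without AZD0095 replicate 3. The chemokine gene CCL2 was at 61.5 to 68.9 FPKM in DMSO and 35.9 to 39.2 FPKM with AZD0095 (-0.75), whereas IL6 (0.59), CXCL1 (0.48) and CXCL8 (0.65) rose. IL6 was lost without DMSO replicate 2 (0.051) and CXCL8 without that library (0.07) or AZD0095 replicate 2 (0.055). The nuclear receptor gene NR2F2 fell by 0.49 on the log2 scale, whichever library was removed.

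Several groups of nuclear proteins had more falls than rises. Histone acetyltransferase complexes place acetyl groups on histones at active genes. The list held 46 genes of NuA4, SAGA, ATAC, the related MOZ and HBO1 complexes and other acetyltransferases or their partners. Of these 8 fell and 0 rose, with a median of -0.10. In the batch fit 14 were lower and 2 higher. The list's falls numbered 0 without DMSO replicate 2, 1 without AZD0095 replicate 2, 3 without each of DMSO replicates 1 and 3 and AZD0095 replicate 3, and 10 without AZD0095 replicate 1. In the 5 batch fits they ran from 8 to 13.

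The NuA4 subunit ING3, a reader of methylated histone H3, was at 10.7, 11.4 and 9.39 FPKM in the DMSO libraries and 6.35, 4.38 and 5.09 FPKM in the AZD0095 libraries, and the NuA4 catalytic subunit KAT5 at 35.1, 36.0 and 38.7 FPKM in the DMSO libraries and 27.3, 28.6 and 28.5 FPKM in the AZD0095 libraries. Both had no overlap between groups, with log2 changes of -0.88 ± 0.13 and -0.37 ± 0.06 (SE, limma adjusted p = 0.0074 and 0.013). Their calls were lost without DMSO replicate 2 (limma adjusted p = 0.051 and 0.07), and that of KAT5 also without DMSO replicate 3 (0.052) or AZD0095 replicate 2 (0.062). The scaffold BRPF3 (-0.40) and the acetyltransferase KAT6B (-0.48) fell too, with an adjusted p of up to 0.088 and 0.11 when 1 library was left out. ZZZ3 (-0.83) of ATAC and, named after their values were seen, SGF29 (-0.44), TADA2A (-0.37) and TAF5L (-0.30) were lost without any library but AZD0095 replicate 1.

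Readers and writers of other marks split. BRD2, a bromodomain protein that binds acetylated histones (ENSG00000204256, chromosome 6, 32968594 to 32981505), was at 118, 122 and 122 FPKM in the DMSO libraries and 83.3, 89.6 and 90.9 FPKM in the AZD0095 libraries, a log2 change of -0.46 ± 0.05 (limma adjusted p = 0.0029). All AZD0095 libraries lay well below DMSO. GSE1, a partner of corepressor complexes, was at 3.13 to 3.94 FPKM in DMSO and 7.20 to 8.32 FPKM with AZD0095 (0.95). Of 40 genes of deacetylases, NuRD, corepressors and DNA methylation 5 rose and 4 fell (12 and 6 with the batch term). The scaffold SIN3A rose by 0.42, lost without DMSO replicate 2 (limma adjusted p = 0.067) or AZD0095 replicate 2 (0.064), and UHRF1, which maintains DNA methylation, fell by 0.42 on the log2 scale, lost without DMSO replicate 2 (0.065). NCOA5, a coactivator of nuclear receptors (ENSG00000124160, chromosome 20, 46060991 to 46089962), showed one of the largest falls, at 32.3, 34.5 and 32.3 FPKM in the DMSO libraries and 16, 15.5 and 16.8 FPKM in the AZD0095 libraries, with a log2 change of -0.99 ± 0.07 (limma adjusted p = 1.6e-04).

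The aryl hydrocarbon receptor is a ligand-activated factor that pairs with ARNT and switches on CYP1A1 and CYP1B1. The partner and the targets moved apart. CYP1A1 was at 15.5, 19.9 and 24.4 FPKM in the DMSO libraries and 6.31, 9.50 and 8.59 FPKM in the AZD0095 libraries, and CYP1B1 at 37.4, 40.7 and 38.1 FPKM in the DMSO libraries and 16.1, 19.0 and 17.9 FPKM in the AZD0095 libraries. Both were lower in every AZD0095 library, CYP1A1 with a wide spread and lost without DMSO replicate 2 (limma adjusted p = 0.054). ARNT rose by 0.38, at 11.2 to 11.9 FPKM in DMSO and 15.0 to 15.8 FPKM with AZD0095, and its call was lost without any single library of replicates 2 and 3 (limma adjusted p of 0.057 to 0.09).

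Splicing regulators were the nuclear group with the lowest median. SR proteins bind exons and recruit the spliceosome, and CLK and DYRK kinases phosphorylate them. Of 34 SR proteins and their kinases 6 fell and 1 rose, with 27 below 0 and a median of -0.18, the lowest of all lists. With replicate 1 as a batch 18 fell and 1 rose, and the falls ran from 14 to 19 in the 5 batch fits. Without the batch term they numbered 1 when either replicate 2 library was left out, 3 for DMSO replicate 1 or AZD0095 replicate 3, 4 for DMSO replicate 3 and 19 for AZD0095 replicate 1.

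SRSF6 (ENSG00000124193, chromosome 20, 43457896 to 43464243) was at 88.4, 85.3 and 80.8 FPKM in the DMSO libraries and 51.4, 49.1 and 47.0 FPKM in the AZD0095 libraries, a log2 change of -0.78 ± 0.06 (limma adjusted p = 3.0e-04). SRSF3 was at 235, 226 and 214 FPKM in the DMSO libraries and 185, 169 and 164 FPKM in the AZD0095 libraries, and SRSF1 at 222, 203 and 199 FPKM in the DMSO libraries and 169.8, 158 and 145 FPKM in the AZD0095 libraries. None of these 3 SR protein genes had overlapping groups. The calls of SRSF3 (-0.38) and SRSF1 (-0.40) were lost without DMSO replicate 2 (limma adjusted p = 0.065 for both) or AZD0095 replicate 2 (0.061 and 0.067). The kinase CLK3 went the other way, at 16.4, 16.5 and 17.1 FPKM in the DMSO libraries and 24.2, 28.9 and 29.1 FPKM in the AZD0095 libraries, with a log2 change of 0.68 ± 0.08 (limma adjusted p = 0.004), whereas the kinase DYRK1A (-0.33) and the SR-related SCAF8 (-0.36) and LUC7L (-0.29), all 3 named after their values were seen, fell and were lost without at least 4 libraries.

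The machinery that SR proteins serve moved less. Of 67 core spliceosome genes 0 were called, and with the batch term 7 fell and 1 rose, both below the shares of all genes. In the 5 batch fits the falls ran from 4 to 12. The 12 came from replicates 2 and 3 alone, a larger share than the 10.9% of all genes lower there. Of 48 hnRNP and other splicing regulators 3 fell and 0 rose (7 and 2 with the batch term). RBM22, which contacts the catalytic core of the spliceosome, was at 45.4 to 46.6 FPKM in DMSO and 32.5 to 33.4 FPKM with AZD0095 (-0.47), and SFPQ, a protein of paraspeckles, at 237 to 275 FPKM in DMSO and 187 to 191 FPKM with AZD0095 (-0.44), and both calls held without each library. Of 23 cleavage and polyadenylation genes 3 fell and 0 rose, where 3.01% of all genes fell. With the batch term the counts were again 3 and 0, a share of falls close to the 11.6% of all genes. The falls were led by PPP1R10, the nuclear targeting subunit of phosphatase 1 that acts at transcription termination. It was at 21.8, 22.7 and 23.1 FPKM in the DMSO libraries and 12.3, 12.0 and 13.2 FPKM in the AZD0095 libraries.

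Transcription elongation is licensed by P-TEFb, the kinase CDK9 with cyclin T, which HEXIM1 holds inactive on the 7SK RNA. HEXIM1 was at 26.2, 26.8 and 26.3 FPKM in the DMSO libraries and 18.9, 19.0 and 18.4 FPKM in the AZD0095 libraries, a log2 change of -0.47 ± 0.06 (SE, limma adjusted p = 0.0048), with no overlap. CDK9 rose by 0.32, a call lost without any library but AZD0095 replicate 1 (limma adjusted p of at most 0.13). The elongation kinase CDK12 (-0.56) and the Integrator subunit INTS7 (-0.56) fell, CDK12 lost without DMSO replicate 2 (0.07) or AZD0095 replicate 2 (0.06) and INTS7 without DMSO replicate 2 (0.051). Of the 43 genes in that list 3 fell and 1 rose (9 and 5 with the batch term). Mediator, RNA polymerase II and general factors had 2 rises and 0 falls among 59, where 5.03% and 3.01% of all genes rose and fell. With the batch term they had 5 rises and 7 falls, where 12.9% and 11.6% of all genes did.

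Nucleolar ribosome assembly factors leaned lower as a group. These proteins transcribe and cut ribosomal RNA and fold it with ribosomal proteins. Of 90 genes 9 fell and 1 rose, with 79 of 90 below 0 and a median of -0.15. In the batch fit 39 fell and 1 rose. The falls were 0 without either replicate 2 library, 2 without DMSO replicate 3, 3 without DMSO replicate 1 or AZD0095 replicate 3 and 31 without AZD0095 replicate 1. In the 5 batch fits they ran from 26 to 36, and the median was -0.12 in the replicate 1 pair and -0.16 in replicates 2 and 3.

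RRS1, needed for the large ribosomal subunit, was at 26.9, 29.5 and 26.2 FPKM in the DMSO libraries and 19.2, 17.8 and 20.3 FPKM in the AZD0095 libraries, and POLR1G, a subunit of RNA polymerase I, at 27.7, 26.6 and 26.9 FPKM in the DMSO libraries and 18.5, 19.9 and 20.9 FPKM in the AZD0095 libraries. Both were lower in every AZD0095 library, with log2 changes of -0.51 ± 0.08 and -0.43 ± 0.07 (limma adjusted p = 0.0087 and 0.01). Each was lost without DMSO replicate 2 (limma adjusted p = 0.059 and 0.06) or AZD0095 replicate 2 (0.053 and 0.055). The other falls were UTP14A (-0.30) and, named after their values were seen, PPAN (-0.35), POLR1C (-0.36), BYSL (-0.24), UTP20 (-0.42), WDR43 (-0.46) and NOP56 (-0.20), which were lost without 4 or 5 libraries, with an adjusted p of at most 0.17. A further polymerase I subunit, POLR1H, rose, at 18.4 to 19.4 FPKM in DMSO and 25.1 to 26.7 FPKM with AZD0095 (0.44), lost without the same libraries as RRS1 (0.056 and 0.051).

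Upstream windows of 2 of these polymerase subunit genes are printed because each holds a known promoter motif. The ETS motif CCGGAAG, on either strand, was found in the 250 upstream bases of 33.8% of 77 nucleolar genes with a window, against 19.1% of all 5655, and the E-box CACGTG in 15.6% against 9.81%. Of the 8 nucleolar genes called lower with a window, only POLR1C held the ETS motif, and 3 held an E-box. BYSL, NOP56, PPAN and WDR43 held neither. Cytosolic ribosomal protein genes, which had 0 calls, held the ETS motif at 31.7% of 63. A match describes these letters only, and base composition was not matched. POLR1C (GRCh38.p14, chr6:43516839-43517088, plus strand) holds the ETS motif 3 times, 2 of them overlapping on opposite strands, and POLR1G (chr19:45406394-45406643, plus strand) holds an E-box 12 bases before its start, all in capitals.
POLR1C: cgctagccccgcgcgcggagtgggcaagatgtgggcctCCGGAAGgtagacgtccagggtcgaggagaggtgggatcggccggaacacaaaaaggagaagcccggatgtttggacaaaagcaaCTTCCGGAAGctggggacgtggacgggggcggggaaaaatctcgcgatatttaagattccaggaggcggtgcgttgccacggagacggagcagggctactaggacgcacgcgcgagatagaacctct
POLR1G: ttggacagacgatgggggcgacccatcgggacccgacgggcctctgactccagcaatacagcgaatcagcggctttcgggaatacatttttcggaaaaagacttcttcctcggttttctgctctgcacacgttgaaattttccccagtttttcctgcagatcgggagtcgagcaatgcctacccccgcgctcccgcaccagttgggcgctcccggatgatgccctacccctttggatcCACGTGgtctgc

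Over all genes with a window the ETS motif was found in 8.47% of 248 called higher and 18.5% of 157 called lower outside the lists, and with replicate 1 as a batch in 72 of 693 higher and 122 of 610 lower. The share among genes that rose was below that of all genes, 19.1%, and that among genes that fell was close to it. Genes that rose were also shorter: their median span was 18.5 kb, against 25.7 kb for genes that fell and 30.6 kb for all 6732 genes with a position, and median DMSO levels were 16.2, 25.8 and 23.3 FPKM in the same order.

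Nuclear transport shared the direction of the nucleolus. Of 52 genes of nuclear pores and transport 3 fell and 0 rose, 43 were below 0 and the median was -0.10. The import receptor KPNB1, at 221 to 255 FPKM in DMSO and 174 to 202 FPKM with AZD0095 (-0.32), the export receptor XPO1, at 111 to 133 FPKM in DMSO and 82.0 to 100.3 FPKM with AZD0095 (-0.40), and the mRNA export helicase DDX39A (-0.19) were each lost without any library but AZD0095 replicate 1 (limma adjusted p of at most 0.13, 0.14 and 0.18). With replicate 1 as a batch 15 fell and 2 rose, and the falls were 6 to 14 in the 5 batch fits. LMNB1, which encodes lamin B1 of the nuclear envelope, fell by 0.42 on the log2 scale, lost without DMSO replicate 2 (0.051) or AZD0095 replicate 2 (0.053).

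Among ubiquitin and antioxidant genes KEAP1 stood out. KEAP1 is the adaptor through which a cullin ligase destroys NRF2, the master factor of antioxidant genes (ENSG00000079999, chromosome 19, 10486125 to 10503356). It was at 49.7, 51.4 and 49.5 FPKM in the DMSO libraries and 32.2, 31.8 and 33.8 FPKM in the AZD0095 libraries, a log2 change of -0.61 ± 0.06 (limma adjusted p = 8.7e-04), and the groups were far apart. Textbook NRF2 targets did not rise together: of 35 antioxidant, iron and metallothionein genes 1 rose, the heme oxygenase HMOX1 (0.56), and 3 fell, KEAP1, SLC30A1 and the glutathione synthesis subunit GCLM (-0.45). HMOX1 and GCLM were lost without at least 4 libraries (limma adjusted p of at most 0.1 and 0.11). With the batch term 2 of the 35 rose and 4 fell. The autophagy receptor SQSTM1, which binds KEAP1, fell by 0.25 on the log2 scale, lost without any library but AZD0095 replicate 1 (at most 0.09). KLHL21, another adaptor of cullin 3, was at 15.7, 17.3 and 18.7 FPKM in the DMSO libraries and 8.89, 9.72 and 9.90 FPKM in the AZD0095 libraries (-0.79), and ARMC5, also a cullin 3 adaptor, at 3.51, 3.91 and 3.82 FPKM in the DMSO libraries and 1.53, 1.12 and 1.39 FPKM in the AZD0095 libraries (-1.02). Both calls held without each library. Of 70 cullin ligase genes, a list without ARMC5, 3 fell and 0 rose. The falls were KEAP1, KLHL21 and FBXO28, or 4.29% of the list, where 3.01% of all genes fell. With the batch term 13 fell and 5 rose, where 11.6% and 12.9% of all genes did.

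Single genes of RNA decay and pyrimidine synthesis fell. ZFP36L2, which binds AU-rich elements and triggers decay, was at 15.7 to 16 FPKM in DMSO and 10.1 to 10.6 FPKM with AZD0095 (-0.57), and SMG9, of the nonsense-mediated decay kinase complex, at 27.6 to 31.3 FPKM in DMSO and 19.2 to 20.4 FPKM with AZD0095 (-0.56). Neither call was lost with any library removed. Of 49 decay genes 3 fell and 2 rose (10 and 5 with the batch term). UMPS (-0.41), which makes the first pyrimidine nucleotide, and CTPS1 (-0.26), which makes CTP, were the 2 calls among 43 genes of one-carbon and nucleotide synthesis, with an adjusted p of up to 0.064 and 0.12 when 1 library was left out. With the batch term 4 of the 43 were higher, among them DHODH of pyrimidine synthesis, named after its value was seen, and 4 were lower. Both counts were below the shares of all genes, 12.9% higher and 11.6% lower.

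Several large housekeeping groups had no call in the fit without the batch term: 0 of 78 cytosolic ribosomal protein genes, 0 of 77 nuclear-encoded respiratory chain genes, 0 of 44 proteasome genes, 0 of 40 genes of mitochondrial import and dynamics and 0 of 30 genes of the tricarboxylic acid cycle. Over all genes 8.04% were called. In the batch fit these lists had 0 and 0, 1 and 1, 1 and 2, 2 and 3, and 0 and 1 rises and falls, against 24.5% called over all genes. Their medians lay between 0.00 and 0.03. Reads of ribosomal protein genes can be shared with pseudogenes, so single members are uncertain.

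**Figure D2:**
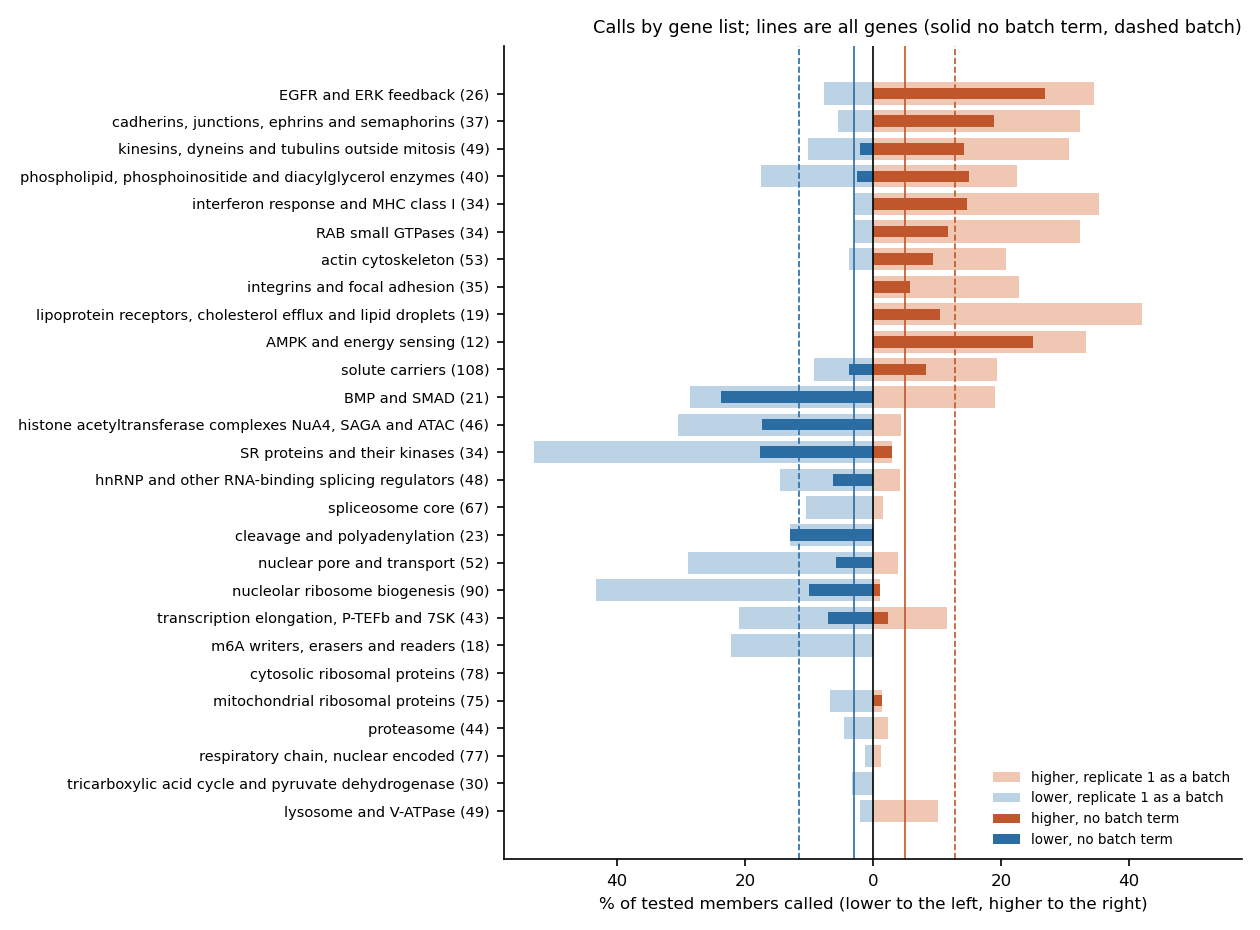
Percent of tested members called in 27 of the gene lists, lower to the left of 0 and higher to the right, with the number of members in brackets; dark bars are the fit without a batch term, pale bars the fit with replicate 1 as a batch, and vertical lines the shares of all genes (solid 5.03% higher and 3.01% lower; dashed 12.9% and 11.6%). SR proteins and nucleolar genes reach furthest to the left with the batch term, and ribosomal protein genes have no bar.

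**Figure D3:**
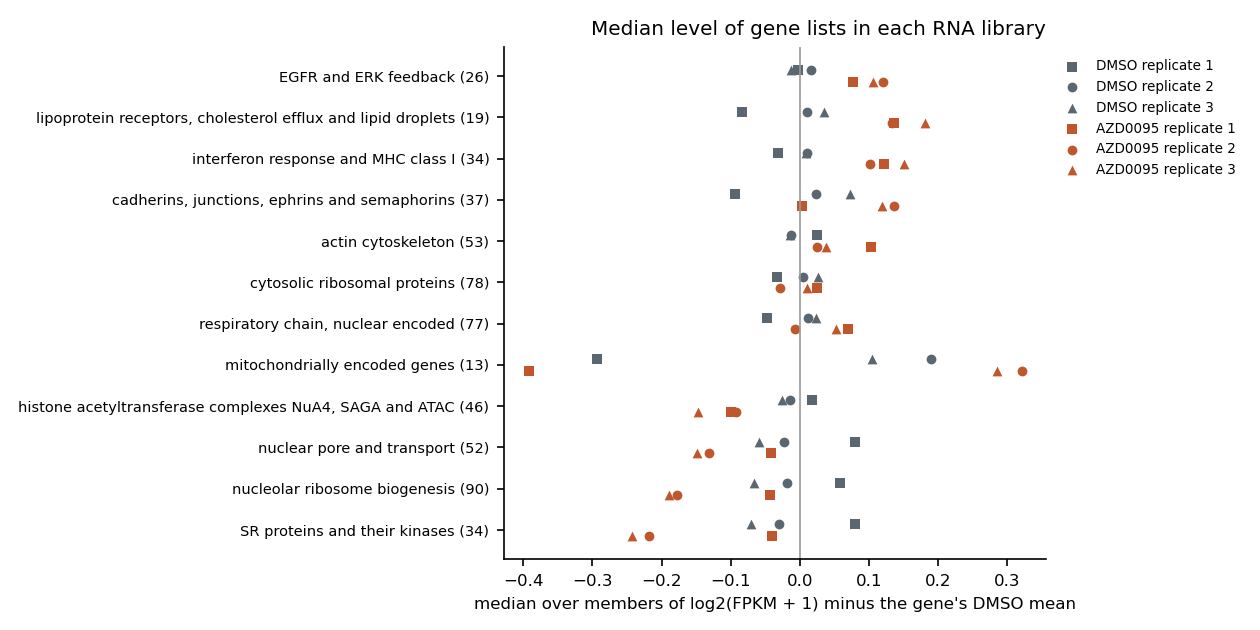
Median over the members of 12 lists of log2(FPKM + 1) minus each gene's DMSO mean, in each of the 6 RNA libraries (squares replicate 1, circles replicate 2, triangles replicate 3). For nucleolar genes and SR proteins the replicate 1 squares sit to the right of the other libraries of their own group, and AZD0095 replicate 1 (-0.04 for both lists) overlaps the DMSO libraries; mitochondrially encoded genes split by replicate 1 in both groups.

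The plot of list medians shows where the replicate 1 libraries bear on the calls. For nucleolar genes the median deviation was 0.06, -0.02 and -0.07 in DMSO replicates 1 to 3 and -0.04, -0.18 and -0.19 with AZD0095. The groups overlapped for this median, AZD0095 replicate 1 lying above DMSO replicate 3, while within replicate 1 and within the others AZD0095 was lower. SR proteins overlapped in the same way (-0.07 in DMSO replicate 3 and -0.04 in AZD0095 replicate 1). Acetyltransferase complexes did not overlap, at -0.03 to 0.02 in DMSO and -0.15 to -0.09 with AZD0095, nor did lipoprotein receptors (-0.08 to 0.04 and 0.13 to 0.18).

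The most abundant called genes outside the lists moved by less than 2-fold. Of the 10 with the highest DMSO mean, CCN1, a matrix protein gene, was at 829, 888 and 901 FPKM in the DMSO libraries and 1078, 1135 and 1164 FPKM in the AZD0095 libraries (0.37), and IER3, a stress-induced survival gene, at 319.6, 323 and 321 FPKM in the DMSO libraries and 447, 445 and 474 FPKM in the AZD0095 libraries (0.50). The chloride channel protein gene CLIC1 (0.24), B2M (0.20) and the actin linker MSN (0.19) rose too. THBS1 (-0.77), the tissue factor gene F3 (-0.31), CCN2 (-0.35), SFPQ (-0.44) and the stress granule protein gene G3BP1 (-0.30) fell. The calls of CCN1, IER3, THBS1, F3 and SFPQ held without each library. Those of CLIC1, MSN, CCN2 and G3BP1 did not, with an adjusted p of up to 0.11, 0.16, 0.088 and 0.097.

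Some genes were called only with the batch term, among them genes whose replicate 1 libraries sat at another level in both groups. LTV1, a small subunit assembly factor, was at 29.4, 22.9 and 21.0 FPKM in the DMSO libraries and 21.4, 14.1 and 12.7 FPKM in the AZD0095 libraries. Within replicate 1 and within the others AZD0095 was lower, but AZD0095 replicate 1 overlapped DMSO, and the adjusted p was 0.1 without the batch term and 2.6e-04 with it (limma; log2 change -0.59). The DNA repair gene NBN (-0.55, limma adjusted p = 0.078 and 3.6e-04), the nucleolar NOP58 (-0.48, 0.14 and 5.9e-04) and the sterol synthesis gene IDI1 (-0.42, 0.053 and 5.2e-04) were also called only with it. Among rises, the endocytic adaptor EPN2 was at 7.95, 11.8 and 13.6 FPKM in the DMSO libraries and 14.1, 20.9 and 19.4 FPKM in the AZD0095 libraries, with an adjusted p of 0.08 and 1.4e-04. HIF1A, the hypoxia factor, was at 74.3, 67.8 and 60.4 FPKM in the DMSO libraries and 113, 80.8 and 78.2 FPKM in the AZD0095 libraries (0.40, limma adjusted p = 0.12 and 0.0014), its replicate 1 libraries being the highest of each group.

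The replicate 1 pair gave a look at calls made without it. Replicates 2 and 3 alone gave 656 genes higher and 739 lower, 9.68% and 10.9% of all genes. In the replicate 1 pair 625 of the 656, or 95.3%, were above 0 and 643 of the 739, or 87.0%, below 0, where 56.8% of all genes were above 0. The median change of the genes called higher was 0.34 in replicates 2 and 3 and 0.29 in the replicate 1 pair, and of those called lower -0.33 and -0.19. Falls were thus smaller in the replicate 1 pair, and as the medians of replicates 2 and 3 come from the fit that chose the genes, no test was made of that difference.

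**Figure D4:**
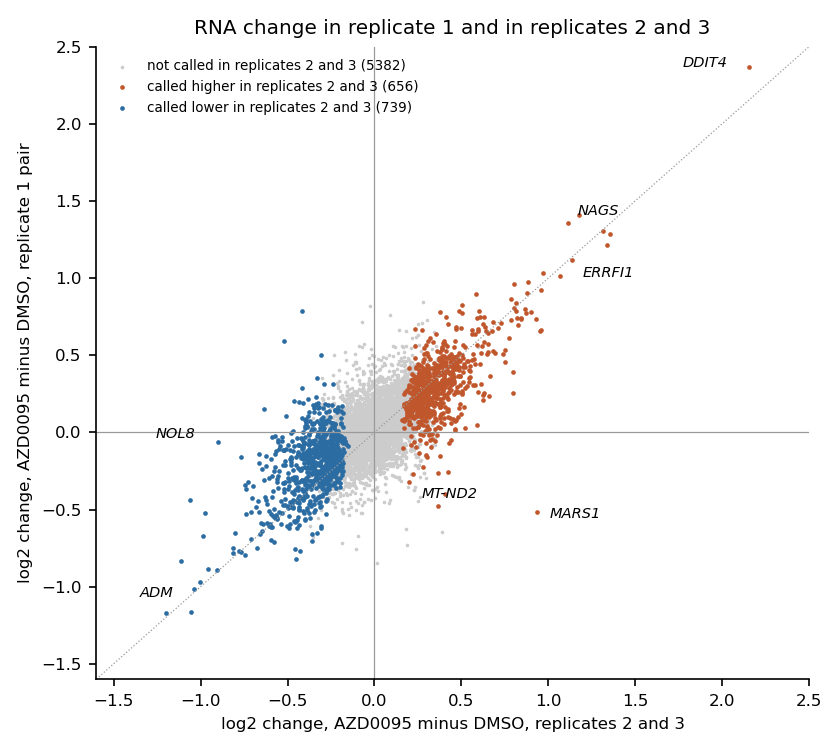
Log2 change with AZD0095 in the replicate 1 pair (vertical) against that in replicates 2 and 3 (horizontal) for each gene; orange and blue points were called higher (656) and lower (739) in replicates 2 and 3, grey points were not called, and the dotted line marks equal change. Most coloured points lie on the same side of 0 on both axes, and MARS1 lies far below the line.

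The difference between the replicate 1 pair and the other replicates was itself tested and called for 2 of all genes (0.0295%). MARS1, the methionyl-tRNA synthetase gene (ENSG00000166986, chromosome 12, 57488068 to 57516652), was at 109.6, 60.9 and 66.1 FPKM in the DMSO libraries and 76.4, 130.0 and 115 FPKM in the AZD0095 libraries. It was lower with AZD0095 in replicate 1 (-0.51) and higher in replicates 2 and 3 (0.94), a difference of -1.45 ± 0.12 (SE, limma adjusted p = 3.7e-05). MT-ND2, a mitochondrially encoded complex I subunit, was at 4562, 5690 and 5298 FPKM in the DMSO libraries and 3656, 6448 and 6184 FPKM in the AZD0095 libraries, a difference of -0.52 ± 0.08 (limma adjusted p = 0.048). Without 1 of the replicate 2 and 3 libraries the count was 22 to 59, the lowest without AZD0095 replicate 2 and the highest without DMSO replicate 3. Of 13 mitochondrially encoded genes 0 were called between treatments, and 3 were higher and 2 lower with the batch term.

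Ribosome footprints were measured for the same treatments in other libraries, which the labels do not pair with the RNA libraries. No footprint change was called (limma, 0%), with 530 genes or 7.82% at an unadjusted p under 0.05 and 53.1% of all genes above 0. Of the 307 genes that rose in RNA outside the lists 208 had a footprint change above 0, or 67.8%, with a median of 0.23. Of the 193 that fell 61 were above 0, or 31.6%, with a median of -0.25, against 0.04 over all genes. At an unadjusted p under 0.05, 31 of the 307 were higher in footprints, where 4.1% of all genes were, and 17 of the 193 lower, where 3.72% were. The medians of the same genes in RNA were 0.40 and -0.42.

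Single genes differed widely, as their standard errors show. The footprint change was 0.99 ± 0.32 for ERRFI1 (SE, limma unadjusted p = 0.0083), 1.67 ± 0.54 for NAGS (0.0097), 0.54 ± 0.19 for G0S2 (0.015), -0.70 ± 0.28 for SRSF6 (0.026) and -0.74 ± 0.17 for SFPQ (0.0011), each in the direction of the RNA and none called after adjustment. NCOA5, one of the largest falls in RNA, was at -0.11 ± 0.71 in footprints, and ETV5, which rose in RNA, at -0.14 ± 0.38.

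**Figure D5:**
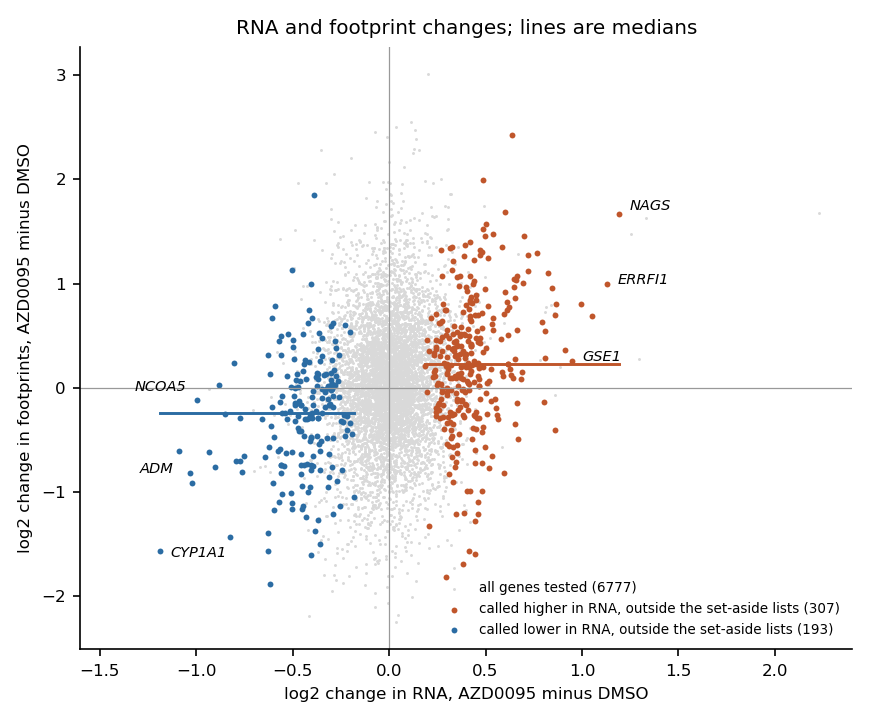
Log2 change in ribosome footprints (vertical) against log2 change in RNA (horizontal), AZD0095 minus DMSO; orange and blue points are the 307 and 193 genes called higher and lower in RNA outside the lists set aside, grey points all 6777 genes, and horizontal lines the median footprint change of each coloured set (0.23 and -0.25). The orange points lie mostly above 0 and the blue points mostly below, with a spread of more than 1 log2 unit to either side.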

How the data were processed

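Gene tables of 6 RNA and 6 ribosome footprint libraries were used. The deposited values are FPKM per gene and library, made by the authors with fastp, Bowtie2 and STAR on hg38, per the submitters' processing notes, which give no versions here; how fragments were counted and whether strand was used is not given in the sources used here. The labels call the RNA total RNA in one field and polyA RNA in another. The tables list 6785 genes; 8 repeated entries were dropped, leaving 6777, none under 1.00 FPKM. Groups came from the sample titles.

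Values were turned into log2(FPKM + 1), so a pseudocount of 1 understates changes of low genes. Treatment was tested with limma 3.58.1 in R 4.3.3 (moderated variances with a trend, two-sided, Benjamini-Hochberg over all genes tested, called at an adjusted p under 0.05), checked on simulated data. Replicate 1 as a batch, the replicate number as a block, other scalings, pseudocounts and filters, and leaving out each library were alternatives; leaving out libraries in the batch fit was added after seeing the data. The members, the 6 lists set aside and the 68 others were chosen with earlier results of these data known. Genes were named by rule: the 30 largest rises and falls among calls outside the lists set aside, up to 4 called members per list with the smallest p, the 10 most abundant called genes, the 10 per direction called only with the batch term, the 10 with the smallest p for a difference of replicate 1, and SLC16A3. Upstream windows are RefSeq GRCh38.p14, with 5655 of the genes tested matched by symbol. Gene positions are those of RefSeq on that assembly, the build the notes call hg38. A few results are not reported here.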

Additional observations from a re-analysis of the deposited data

Results flagged for a closer look

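The treatment effect of MARS1, which belongs to the stress list, differed between the replicate 1 pair and replicates 2 and 3 by -1.45 on the log2 scale, with opposite signs in the pairs (limma adjusted p = 3.7e-05). For MT-ND2, mitochondrially encoded, the same difference was -0.521118 (limma adjusted p = 0.048), beside a mitochondrial share of summed FPKM of 10.3% and 9.46% in the replicate 1 libraries of DMSO and AZD0095. The part of that share in the result was not tested.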

How the results depend on the processing

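Against 545 calls (341 higher, 204 lower), replicate 1 as a batch gave 1660 (874 and 786), the same with median centring 1729 (918 and 811), and replicates 2 and 3 alone 1395 (656 and 739). The replicate block gave 1622 (856 and 766); same-numbered RNA libraries of the groups deviated together at correlations of 0.62, 0.09 and 0.49, so the numbers were not taken to pair them, and DMSO replicate 2 correlated best with AZD0095 replicate 3. Leaving out 1 library gave 100 calls (67 higher, 33 lower, both without DMSO replicate 2) to 1112 (509 and 603, without AZD0095 replicate 1); with replicate 1 as a batch it gave 1072 (576 and 496, without AZD0095 replicate 3), 1124 (620 and 504, DMSO replicate 3), 1142 (632 and 510, DMSO replicate 2) and 1321 (714 and 607, AZD0095 replicate 2). A pseudocount of 0.1, a mean of at least 5 FPKM, median centring, quantile scaling and no variance trend gave 517 to 545 calls. The direction of a named gene that was not called, such as MT-ND2, could depend on the libraries left out. The balance of directions changed too: more genes were lower than higher without replicate 1 and without AZD0095 replicate 1. DNA repair genes went from 2 rises and 0 falls to 6 and 10 with the batch term and 4 and 10 without AZD0095 replicate 1. The causes were not tested. The replicate 1 difference gave 22 to 59 calls with a further library left out (13 to 49 higher, 7 to 15 lower), against 2. Footprints had 0 calls in each of 10 alternatives, the replicate block included (limma; 334 to 590 genes at an unadjusted p under 0.05). Depth is unknown, so counting error could not be set beside any value.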

Other observations

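One stretch of chromosome 6, from 30000001 to 40000000 in hg38, had a high share of its genes called higher. It was chosen after seeing the data, as the first of 68 windows of 10 Mb with at least 30 tested genes, ranked by the percent called higher with replicate 1 as a batch. The values below come from the same data and are no independent support. The adjacent window, 40000001 to 50000000 of the same chromosome, ranked next, with 17 of 52 genes higher and 8 lower in that fit. Without the batch term 14.2% of the genes of chromosome 6 were called in either direction, against 8.04% of all genes. Of its 100 genes 38 were called higher and 5 lower in that fit, where 12.9% of all genes were higher, and 19 and 4 without the batch term, where 5.03% were. The window's median log2 change was 0.12, where the medians of all windows ran from -0.09 to 0.12, and 77 of the 100 genes were above 0. In the single libraries the median deviation from the DMSO mean was -0.02, -0.01 and 0.04 in DMSO and 0.10, 0.09 and 0.14 with AZD0095, with no overlap. The replicate 1 pair gave a median of 0.11 and replicates 2 and 3 one of 0.11. Genes described above that lie in this window include PIM1 and TEAD3, which rose, and BRD2, which fell.

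DNA repair genes gave 2 rises and 0 falls among 52 without the batch term and 6 rises and 10 falls with it, at a median of -0.09. The rises without the batch term were the helicase gene RAD54L (0.42) and TP53BP1 (0.37), and neither was called when DMSO replicate 1, 2 or 3 or AZD0095 replicate 2 was left out. Histone methyltransferases and demethylases had 3 rises and 0 falls among 44, and 7 and 7 with the batch term.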
